A study of Mus musculus with 5 samples.

Results

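Interferon-stimulated CD8 T cells were single barcodes that held RNA of the CD3 and CD8 genes together with RNA of several genes switched on by interferon. They were examined in 2 T cell libraries, T_sensitive and T_resistant, made from 4T1 tumors after doxorubicin (DOX). They were chosen by measured RNA, that of 7 interferon-stimulated genes above all. Kept barcodes had 500 or more genes detected and no more than 10% of their unique molecular identifiers (UMIs, which count captured RNA molecules) in mitochondrial genes. A kept barcode was a member with at least 1 UMI of Cd3d, Cd3e or Cd3g, at least 1 of Cd8a or Cd8b1, none of Cd4, UMIs of at least 3 of the 7 genes Ifit1, Ifit2, Ifit3, Isg15, Rsad2, Usp18 and Cmpk2, and fewer than 2 of the 5 cell cycle genes Mki67, Top2a, Birc5, Ccna2 and Ube2c detected. There were 190 members in T_sensitive and 190 in T_resistant, 380 of 11119 barcodes in the 5 libraries of the series. They came from 1413 and 1731 kept CD8-gated barcodes, of which 1303 and 1489 were non-cycling. The remaining 1113 and 1299 non-cycling barcodes are called other CD8 T cells below.

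Both libraries came from BALB/c mice, 12 weeks old per the labels, that carried tumors of 4T1, a mammary cancer line of the mouse that was implanted into the fat pad of hosts with an intact immune system. All of these mice received DOX, a topoisomerase poison, by vein at 5 mg/kg in 3 doses given 3 days apart. Tumors whose growth was inhibited were sensitive, and tumors that kept growing were resistant. T cells were enriched by magnetic depletion of other cells. Each library pooled the cells of 3 tumors, with nothing in the barcodes to tell the tumors apart. No T cell library from untreated mice was analysed here. Each group had 1 library, so no difference between sensitive and resistant members was tested against biological error. Brackets give 95% intervals, exact Poisson for a level, exact binomial for a share, exact conditional binomial for a ratio of levels and a log-scale interval for a ratio of shares. They cover counting error only.

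Type I interferons (interferon alpha and beta) act through the receptor chains Ifnar1 and Ifnar2 and the kinases Jak1 and Tyk2, and bring transcription factors, Stat2 and Irf9 among them, to the interferon-stimulated response element (ISRE) in gene promoters. Interferon gamma, made by T and NK cells, acts through its own receptor and on its own promoter element, the gamma-activated site (GAS). Both switch on antiviral effectors, antigen presentation genes and the guanylate-binding proteins. T cells with this programme have been described in infection and in tumors as a state that other T cell states can share.

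The promoters of 5 genes that carry the programme, and of Ifit3b, a close copy of Ifit3 that the rule did not use, are shown because they hold the element that interferon signalling acts on. Each is the 200 bases before the start site, 5′ to 3′ on the gene's strand, from RefSeq on GRCm38.p6. The windows are chr4:156200819-156201018 (minus strand) for Isg15, chr19:34640689-34640888 (plus) for Ifit1, chr19:34583329-34583528 (plus) for Ifit3, chr19:34607757-34607956 (plus) for Ifit3b, chr12:26456453-26456652 (minus) for Rsad2 and chr3:142620463-142620662 (plus) for Gbp2. Capitals mark every match to the ISRE core, which was searched as GAAA, any 2 bases and GAAA again, or on the other strand as TTTC, any 2 bases and TTTC.
Isg15: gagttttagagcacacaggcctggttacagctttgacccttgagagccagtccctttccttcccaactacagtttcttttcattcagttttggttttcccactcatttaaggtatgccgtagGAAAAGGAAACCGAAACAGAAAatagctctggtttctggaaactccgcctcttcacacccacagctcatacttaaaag
Ifit1: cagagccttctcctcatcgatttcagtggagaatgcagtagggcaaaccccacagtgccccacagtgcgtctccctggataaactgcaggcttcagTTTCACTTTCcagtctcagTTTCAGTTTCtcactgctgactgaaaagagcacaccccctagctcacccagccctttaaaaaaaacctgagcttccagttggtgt
Ifit3: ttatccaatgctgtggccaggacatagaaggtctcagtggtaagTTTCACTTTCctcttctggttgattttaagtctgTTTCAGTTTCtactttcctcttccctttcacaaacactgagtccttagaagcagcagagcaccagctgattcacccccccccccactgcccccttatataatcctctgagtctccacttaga
Ifit3b: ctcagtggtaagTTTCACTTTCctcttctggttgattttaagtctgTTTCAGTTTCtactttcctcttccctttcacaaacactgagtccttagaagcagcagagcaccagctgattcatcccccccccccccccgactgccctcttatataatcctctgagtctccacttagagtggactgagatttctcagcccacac
Rsad2: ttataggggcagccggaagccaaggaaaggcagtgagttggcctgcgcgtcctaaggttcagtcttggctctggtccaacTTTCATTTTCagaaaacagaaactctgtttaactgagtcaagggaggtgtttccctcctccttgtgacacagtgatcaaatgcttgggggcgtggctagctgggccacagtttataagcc
Gbp2: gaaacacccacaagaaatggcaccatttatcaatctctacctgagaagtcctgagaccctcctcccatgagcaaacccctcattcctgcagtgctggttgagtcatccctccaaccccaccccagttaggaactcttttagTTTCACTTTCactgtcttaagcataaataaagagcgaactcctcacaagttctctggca

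In these windows Isg15, a ubiquitin-like modifier, had 3 overlapping matches that began 78, 72 and 66 bases before the start. Ifit1, which binds foreign RNA ends, had matches at 104 and 85 bases, and Rsad2 (viperin) had 1 at 120 bases. Gbp2, a guanylate-binding protein, had 1 at 59 bases. Ifit3 and Ifit3b carried the same pair of matches, at 156 and 122 and at 188 and 154 bases, and 188 of 218 aligned bases (86.2%) were identical at an offset of 32 bases when windows of 250 bases before the start were compared. Reads from the shared stretches of such copies can be left out by counting that keeps only uniquely assigned reads, so values of Ifit3, Ifit3b, Oas1a, the Gbp, Phf11 and Tgtp genes and the H2-Q genes are uncertain to that extent.

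Among all RefSeq genes with a window of 250 bases before the start, 936 of 27025 (3.46%) held the ISRE core. It was present in 25 of 59 matched genes (42.4%) of a list of antiviral interferon-stimulated genes that left out the 7 rule genes, in 4 of 6 matched rule genes and in 9 of 10 matched guanylate-binding and immunity-related GTPase genes. It was present in 3 of 17 MHC class I presentation genes, in 2 of 16 cytotoxic genes and in 0 of 8 genes of inhibitory receptors and factors. The GAS core TTCNNNGAA (N is any base), which reads the same on both strands and can overlap an ISRE match, was in 8.13% of all genes and in 6 of 10 of the GTPase genes. A match is a string of letters and no evidence of binding, and these windows do not hold elements that lie further away.

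The rule fixed that every member held CD3 and CD8 RNA, so the T cell label was checked on Trac, the T cell receptor alpha constant gene, which the rule did not use. It was detected in 83.7% and 84.2% of sensitive and resistant members. In fibroblast-marked barcodes of the same libraries, which have no such receptor, it was seen in 4.11% of 779 and 2.76% of 544, at a median of 12988 and 13701 UMIs against 4228 and 4597 in members. For Cd8a the share was 0.513% and 0.551%. These barcodes were chosen without a Cd3d, Cd3e or Cd3g UMI, which can lower both shares. They are therefore a low estimate of the background of free T cell RNA.

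Some members also held RNA of other cells. At least 3 markers of a non-lymphoid class were detected in 25 sensitive (13.2%) and 23 resistant members (12.1%), which held 31.7% and 36.5% of all member UMIs. Among other CD8 T cells the counts were 35 (3.14%) and 84 (6.47%). The class was fibroblast (Col1a1, Col1a2, Col3a1, Dcn, Lum) in 15 and 15 members, macrophage in 8 and 6, neutrophil in 2 and 6 and cancer in 0 and 1. The 5 fibroblast markers summed to 5775 and 5854 CPM (UMIs per 1000000 UMIs of the same set of cells) in members against 995 and 1830 in other CD8 T cells. All 6 dendritic cell markers had 0 UMIs in sensitive members, and 5 of 6 in resistant members. Removing these barcodes left 165 and 167 members, called marker-clean members here, with 776977 and 873483 UMIs, and brought the fibroblast markers to 124 and 17.2 CPM and the macrophage markers to 20.6 and 67.5 CPM. Wherever marker-clean members are set beside other CD8 T cells, the 35 and 84 barcodes with such markers are left out of the other CD8 T cells too. The part of these RNAs in results over all members was not tested.

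The libraries themselves differed. T_sensitive held 3949 barcodes at a median of 4460 UMIs and T_resistant 6116 at 3354, and 45.7% of T_resistant barcodes lay above the mitochondrial limit against 5.90% of T_sensitive. Members were closer in depth, at medians of 4228 UMIs (1145 to 39848) and 4597 UMIs (907 to 65016), while their mitochondrial share had medians of 2.32% and 5.41%, whose part in the differences below was not tested. The libraries shared 31 barcode sequences, and no sequence was a member in both.

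Members made up 13.4% (11.7 to 15.3) of CD8-gated barcodes in T_sensitive and 11.0% (9.54 to 12.5) in T_resistant, a ratio of 1.23 (1.01 to 1.48). Over non-cycling CD8-gated barcodes members made up 14.6% and 12.8%. The ratio was then 1.14 (0.948 to 1.38), and its interval included equal shares. Marker-clean members gave 12.3% and 10.4%, a ratio of 1.18 (0.967 to 1.45). Because finding 3 of 7 genes depends on depth, every kept barcode was also cut by random draw to 2000 UMIs, and 417 and 237 shallower ones were left out. Members then numbered 100 of 1315 (7.60%) and 87 of 1622 (5.36%), a ratio of 1.42 (1.07 to 1.87). The cycling barcodes that the rule sets aside reached 3 of the 7 genes in 18 of 110 and 26 of 242 cases.

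The number of barcodes fell at each step from 0 to 5 rule genes, with no gap at the threshold of 3. Of non-cycling CD8-gated barcodes, 669 sensitive (51.3%) and 775 resistant (52.0%) had none of the 7, 306 and 355 had exactly 1, and 138 and 169 had exactly 2. Exactly 3 genes were found in 67 and 82 members, 4 in 50 and 43, 5 in 26 and 31, 6 in 27 and 21, and all 7 in 20 (1.53%) and 13 (0.873%). After thinning to 2000 UMIs, all 7 genes were seen in 6 sensitive and 2 resistant barcodes.

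**Figure D1:**
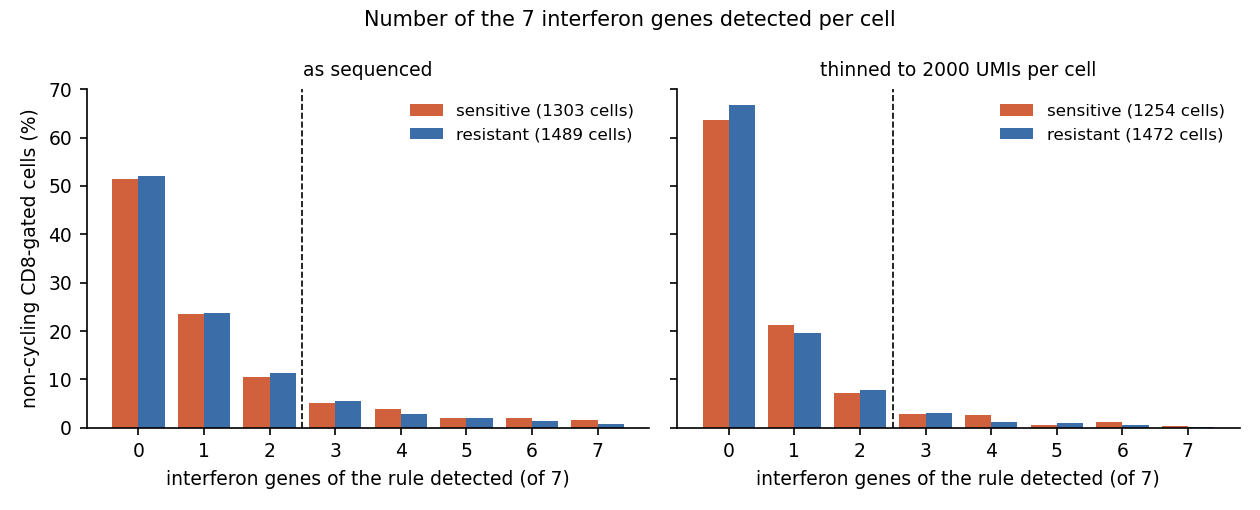
Percent of non-cycling CD8-gated cells (vertical axis) with UMIs of 0 to 7 of the rule genes (horizontal axis) in T_sensitive and T_resistant, as sequenced on the left and thinned to 2000 UMIs per cell on the right. As sequenced, the bars stand at 51.3% and 52.0% at 0 genes and at 1.53% and 0.873% at 7 genes, and members lie to the right of the dashed line.

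The 7 rule genes chose the members, and their levels are given as a description. Isg15 was found in 96.8% of sensitive and 97.4% of resistant members, at 1429 and 1349 CPM, against 29.3% and 30.4% of other CD8 T cells at 147 and 149 CPM. Ifit1 was found in 77.4% and 74.2% of members at 359 and 265 CPM. Ifit3 was found in 69.5% and 68.9%, and Usp18, which removes Isg15 from proteins and damps the receptor, in 71.1% and 72.6%. Rsad2 was found in 42.6% and 33.2% and Cmpk2, a mitochondrial nucleotide kinase, in 40.0% and 31.1%. Ifit2, a relative of Ifit1, was found in 41.1% and 38.4%. In both libraries Isg15 was nearly always present, Ifit1, Usp18 and Ifit3 were in most members, and the other 3 genes in fewer. Together the 7 genes gave each sensitive member a median of 11 UMIs (range 3 to 128) and each resistant member 10 (range 3 to 254).

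Just inside the rule, members with exactly 3 genes had Isg15 in 94.0% and 95.1% of barcodes at 597 and 729 CPM. Just outside it, barcodes with exactly 2 genes had Isg15 in 89.1% and 89.9% at 454 and 421 CPM. Ifit1 was found in 58.2% and 53.7% inside and in 28.3% and 34.3% outside. The rule used these genes, so the values describe both sides of its boundary and carry no test.

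Beyond the rule genes, members held more RNA of most interferon-stimulated genes than other CD8 T cells of the same library. This contrast is the one the rule used, so its values describe the members and carry no test. A gene was counted where it had at least 50 UMIs, lay at least 2-fold higher in members and had an interval above 1 in both libraries. Over all members 375 of 8134 genes (4.61%) met this, and 20 (0.246%) met the opposite. Over marker-clean members 125 of 7291 (1.71%) and 18 (0.247%) did. Of the antiviral list, 46 of 62 genes with enough UMIs were higher over all members and 47 of 59 over marker-clean members, with median ratios of 3.49 in T_sensitive and 3.22 in T_resistant. The medians over all genes were 0.957 and 0.971. Summed over the list, marker-clean members held 22513 and 19330 CPM against 9012 and 8510 CPM in other CD8 T cells. The list held 74 genes, of which 72 were among the features, and some lay near the level of other CD8 T cells, such as Ifitm1 at 1.08 and 0.990 and Ifitm2 at 0.883 and 0.895.

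By the naming rule, which left the 7 rule genes out of the ranking, the genes furthest above other CD8 T cells in both libraries (marker-clean) were led by Cxcl10, a chemokine that draws Cxcr3-bearing cells, at ratios of 22.5 and 34.1. Its UMIs came from 20 sensitive and 26 resistant members. Ifi202b, of the Ifi200 family of DNA-binding proteins, followed at 18.1 and 14.2. Ifit3b lay at 29.8 and 12.4, and Slfn5, a Schlafen family member, at 12.2 and 10.6. Ifih1 (MDA5), a sensor of double-stranded RNA, lay at 8.36 and 9.14, and the RNA helicase Ddx60 at 5.03 and 6.40. Eif2ak2 (PKR), a kinase that halts translation when it binds double-stranded RNA, lay at 6.50 and 5.69. Ifi44 lay at 13.1 and 6.07 and Ifit1bl1 at 9.11 and 7.33. Iigp1, a GTPase that attacks vacuoles of parasites, lay at 5.83 and 6.77, and Ifi214, Ifi209, Rtp4 and Daxx lay between 4.59 and 7.19. Tnp2, a sperm chromatin protein gene, was the exception in kind, at 5.13 and 5.12 on 24 and 32 UMIs over all members. Of these 15 genes, 14 are known to be interferon-stimulated.

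**Figure D2:**
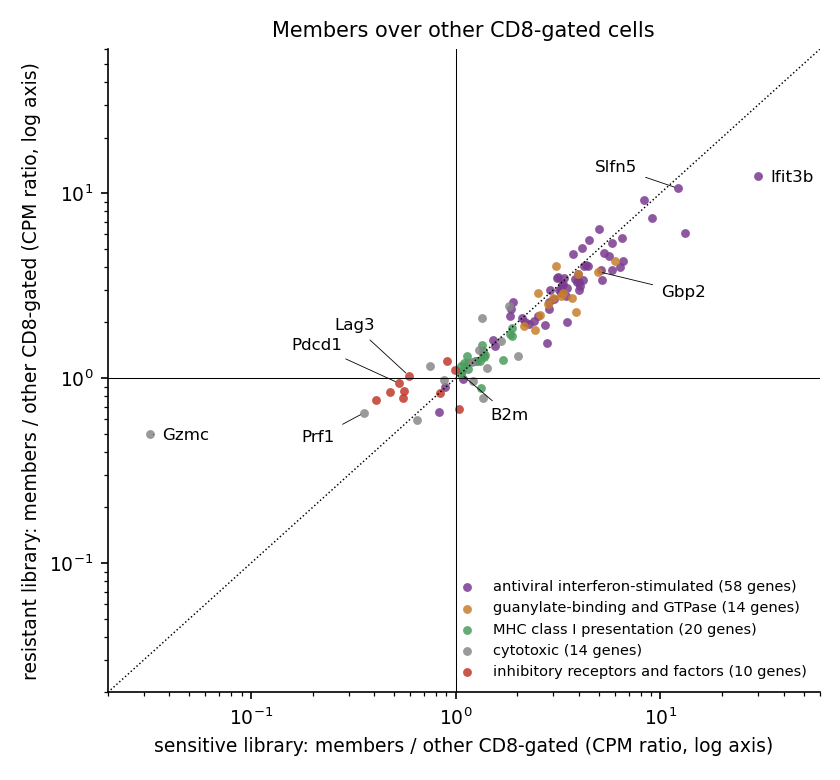
Ratio of CPM in marker-clean members over other CD8 T cells, T_sensitive on the horizontal and T_resistant on the vertical axis (both log scale), each point a gene of 5 lists with at least 50 UMIs over the members of both libraries. The antiviral genes lie to the upper right, with Slfn5 at 12.2 and 10.6 and Gbp2 of the GTPases at 4.97 and 3.77, while Pdcd1 lies at 0.530 and 0.938.

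The signalling chain was uneven. Stat2 had 3.84 and 3.78 times the level of other CD8 T cells, and Irf7, which amplifies interferon output, had 4.74 and 4.13 times. Of 20 signalling genes with enough UMIs, 3 met the 2-fold rule in both libraries, these among them. The receptor chain Ifnar1 stood at 0.863 and 1.08, Ifngr1 at 0.910 and 0.969, and the kinase Jak1 at 1.00 and 0.954. Ifnar2 stood at 1.07 and 1.28, Jak2 at 0.952 and 1.32 and Tyk2 at 0.709 and 1.46. The median of the 20 was 1.03 and 1.29.

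Of the guanylate-binding and immunity-related GTPases, which attack the membranes of intracellular microbes, 12 of 14 met the 2-fold rule in marker-clean members (9 of 14 in all members), with medians of 3.17 and 2.75. Gbp2 lay at 4.97 and 3.77, Igtp at 3.95 and 3.64, and Gbp6 at 3.87 and 2.28. Gbp4, at 2.15 and 1.92, and Gbp8, at 2.43 and 1.83, missed it in T_resistant. MHC class I presentation genes were abundant in all CD8 T cells and 0 of 20 met the rule. Their medians were 1.33 and 1.25 in marker-clean members, with B2m, the light chain, at 1.06 and 1.06, Tapbp, which loads peptide, at 1.88 and 1.70 and the immunoproteasome subunit Psmb10 at 1.89 and 1.88.

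Several T cell genes outside the interferon programme lay below the other CD8 T cells. The list of inhibitory receptors and factors had medians of 0.575 in T_sensitive and 0.846 in T_resistant (marker-clean). Pdcd1, which encodes the checkpoint receptor PD-1, stood at 0.530 (0.455 to 0.614) and 0.938 (0.835 to 1.05). Lag3 stood at 0.591 and 1.03, Tigit at 0.556 and 0.780, and Havcr2 (Tim-3) at 0.409 and 0.763. Tnfrsf9 (4-1BB), a costimulatory receptor of recently stimulated cells, stood at 0.296 and 0.548. Perforin (Prf1), the pore former of killing, stood at 0.357 and 0.650. Cd69, an early activation marker that also retains cells in tissue, was above 1 at 1.94 and 1.88, and Ly6c2, a surface protein of effector and memory CD8 T cells, at 3.21 and 2.89. Both rose with the number of rule genes, so neither is read as outside the interferon programme. From 0 to 5 to 7 rule genes Cd69 went from 373 to 1061 CPM in T_sensitive and from 298 to 724 CPM in T_resistant. Marker-clean, the lowest ratios by the naming rule included the mast cell proteases Mcpt1 and Mcpt2, Gzme, Gzmd and Penk (proenkephalin), each carried by few members. Over all members of T_resistant Gzme was 2.78 (2.34 to 3.31), with 203 of 209 UMIs in 1 barcode, Gzmd 1.07 and Penk 0.979. Mcpt1 and Mcpt2 were carried by few other CD8 T cells too. In T_resistant with 1 rule gene, 2660 Mcpt1 UMIs lay in 2.23% of 314 barcodes. Gzmd and Gzme had 0 UMIs in the sensitive members.

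Levels were then followed across the number of rule genes, over marker-clean non-cycling CD8-gated barcodes. The antiviral list summed to 7383, 9671, 14118, 17789 and 28820 CPM in T_sensitive at 0, 1, 2, 3 to 4 and 5 to 7 rule genes. In T_resistant the series was 6970, 9676, 13825, 16774 and 23242 CPM. The bins held 655, 296, 127, 97 and 68 barcodes and 765, 314, 136, 107 and 60, and median depth stayed between 3694 and 4784.5 UMIs. Both series climbed at each step, and only the last bins stood far apart.

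Irf7 went from 55.5 CPM with no rule gene to 655 CPM (571 to 748) with 5 to 7 in T_sensitive, and from 33.9 to 333 CPM (275 to 400.0) in T_resistant. Ly6c2 went from 188 to 923 CPM and from 68.6 to 348 CPM. B2m, by contrast, only moved from 4321 to 5001 CPM and from 3884 to 4207 CPM.

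Pdcd1 stood at 477 (451 to 504), 461, 450, 281 and 204 CPM (159 to 259) along the series in T_sensitive. In T_resistant it stood at 435 (413 to 457), 386, 384, 375 (324 to 431) and 411 CPM (347 to 485). In both libraries the bins with rule genes lay below the bin with none. The intervals at 5 to 7 rule genes did not overlap between the libraries, and this difference was not tested. Tnfrsf9 stood at 316, 405, 318, 119 and 78.1 CPM in T_sensitive and at 352, 382, 228, 178 and 209 CPM in T_resistant. Cd8a, which the rule used, stood at 1657, 1600, 1611, 1405 and 1557 CPM in T_sensitive and at 1385, 1374, 1365, 1461 and 1484 CPM in T_resistant.

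**Figure D3:**
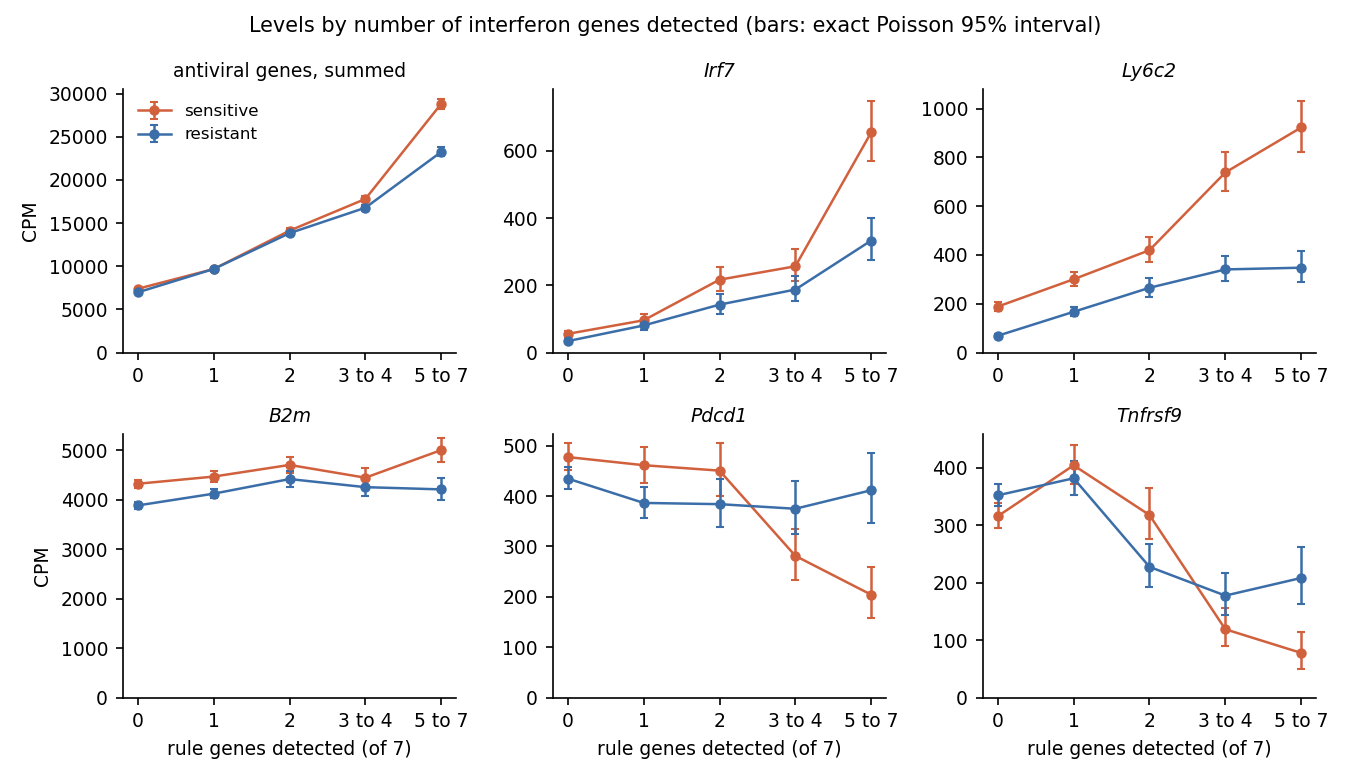
CPM with exact Poisson 95% intervals (vertical axes) at 0, 1, 2, 3 to 4 and 5 to 7 rule genes (horizontal axes) in marker-clean non-cycling CD8-gated barcodes of T_sensitive and T_resistant. The antiviral sum reaches 28820 and 23242 CPM in the last bin, and Pdcd1 ends at 204 CPM in T_sensitive and 411 CPM in T_resistant.

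Sensitive and resistant members were set against each other next, which asks whether the same programme was carried to the same level in tumors that answered to DOX and tumors that did not. A gene was called higher with at least 50 UMIs over both sets, a ratio of sensitive over resistant CPM of at least 2 and an interval above 1, and called lower at 0.5 or less with an interval below 1. Over all members 191 of 5618 genes (3.4%) were called higher and 146 (2.6%) lower. Over marker-clean members 81 of 3879 (2.09%) were called higher and 49 (1.26%) lower. The ratio was above 1 for 3216 of 5618 genes over all members and for 2418 of 3879 over marker-clean members. The median ratio over all genes was 1.05 and 1.08, and list counts and medians are read beside these values.

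The calls with the most extreme ratios included genes known from other cell types and genes that rested on single barcodes. Over all members the highest included Slpi, Ccl24, Ccl6, H19, Mmp12 and Il6, and the lowest the matrix genes Tnc and Tnn, the epithelial gene Cldn4 and Grem1, a secreted growth factor antagonist. Of the 10 lowest, 4 were the T cell genes Gzmc, Gzmd, Gzme and Ccl1, which are described below. Of the macrophage markers with enough UMIs, 4 of 5 were called higher in sensitive members, and 2 of 2 neutrophil and 2 of 3 cancer markers were called lower. In marker-clean members the highest 10 included Acta2 and Sparcl1, contractile and vessel wall genes, with 424 of 424 and 186 of 186 UMIs in 1 sensitive barcode. These ratios rest on single barcodes, and the gene groups below are given for marker-clean members unless stated.

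The antiviral list leaned to the sensitive side without large changes of single genes. Of 58 listed genes with enough UMIs, 51 had a ratio above 1, with a median of 1.30 (0.672 to 2.08 from lowest to highest), while 2 were called higher (Ifit3b and Ifi44) and 0 lower. Over all members 54 of 60 were above 1, with a median of 1.32, and 2 were called higher (Ifit3b and Cd274) and 0 lower. In other CD8 T cells the list's median was 1.13. Ifit3b had 101 UMIs in sensitive and 61 in resistant members. Marker-clean it stood at 127 and 63.0 CPM, in 38.8% and 22.2% of cells, a ratio of 2.02 (1.44 to 2.87), against 0.842 (0.453 to 1.53) in other CD8 T cells. Ifi44, an antiviral protein, had a ratio of 2.08 (1.26 to 3.48) and was 1.41 over all members. The 7 rule genes had a median of 1.34 (1.15 to 1.51), on members that had all passed the same rule.

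Between these ends lay the DNA and RNA sensors. Zbp1, a sensor of left-handed nucleic acid, stood at 553 and 355 CPM, a ratio of 1.56 (1.34 to 1.81). Dhx58 (LGP2) stood at 99.1 and 57.2 CPM, 1.73 (1.2 to 2.52), while Ifih1 stood at 134 and 119 CPM, 1.12 (0.848 to 1.49), and Ddx58 (RIG-I) at 202 and 161 CPM, 1.25 (0.991 to 1.58). Eif2ak2 was 1.02 (0.750 to 1.40). Bst2 (tetherin), which holds budding virus at the cell surface, stood at 963 and 717 CPM, 1.34 (1.21 to 1.5). The intervals of Ifih1, Ddx58 and Eif2ak2 included 1, so at this depth no difference was detectable for these 3.

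The listed gene furthest on the resistant side was Ifi27l2a, of the ISG12 family. It had 2391 UMIs in sensitive and 4149 in resistant members, and marker-clean stood at 2628 and 3911 CPM, a ratio of 0.672 (0.636 to 0.710), with 0.849 in other CD8 T cells. Ifitm1, of a family that blocks virus entry, was also below 1, at 1317 and 1551 CPM, 0.849 (0.782 to 0.921). Ly6a (Sca-1), an interferon-responsive surface protein, went the opposite way, at 3476 and 1873 CPM, 1.86 (1.74 to 1.97), with 2.07 in other CD8 T cells. For Ly6a and Ifi27l2a the direction was thus the same in members and in other CD8 T cells.

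The signalling genes had a median of 1.22 over 19, with 0 called in either direction. Irf7 had 381 and 327 UMIs, and marker-clean stood at 427 and 245 CPM, in 75.8% and 61.1% of cells, a ratio of 1.74 (1.46 to 2.08). Irf9 was 1.68 (1.2 to 2.36) and Irf1, a factor of the gamma response, 1.59 (1.23 to 2.07). Ifnar1 was 1.09 (0.738 to 1.59), in 24.8% and 26.3% of cells. Tyk2 was the low end, with 17 and 41 UMIs over all members and a marker-clean ratio of 0.463 (0.229 to 0.886) on fewer than 50 UMIs. Socs3, a brake on cytokine receptors, was called higher over all members on 160 and 62 UMIs, but marker-clean members held 36 and 21 of these UMIs.

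The GTPases had a median of 1.57 with 13 of 14 above 1 and 0 called. Over all members 1 was called higher, Gbp5, at 2.38 (1.49 to 3.86) against 1.62 marker-clean. Gbp2 stood at 292 and 158 CPM, in 57.0% and 44.9% of cells, 1.85 (1.49 to 2.30). Irgm1 was 1.88 (1.36 to 2.63), Gbp6 1.78 (1.41 to 2.26), and Gbp10 was the member below 1, at 0.864 (0.612 to 1.21). In other CD8 T cells the list's median was 1.24. MHC class I genes had a median of 1.27, with 19 of 20 above 1 and 0 called, and 1.22 in other CD8 T cells. H2-Q6, a nonclassical class I gene, stood at 1144 and 717 CPM, 1.6 (1.44 to 1.77), and B2m at 4682 and 4235 CPM, 1.11 (1.06 to 1.16). The medians of the class I genes were thus close in members and in other CD8 T cells. Cd274, which encodes the PD-1 ligand PD-L1 and is itself interferon-stimulated, stood at 107 and 67.5 CPM, 1.58 (1.12 to 2.25), and was 2.32 over all members.

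Effector genes differed in both directions. Gzmb, the granzyme that starts apoptosis, had 1913 UMIs in sensitive and 980 in resistant members, and marker-clean stood at 2055 and 1077 CPM, in 57.6% and 49.7% of cells, 1.91 (1.76 to 2.07). Over all members its ratio was 2.36 (2.18 to 2.55) and it was called higher, as was Gzmk at 2.01 (1.66 to 2.43). Marker-clean, Gzmk stood at 336 and 196 CPM, 1.72 (1.41 to 2.09), with 2.70 in other CD8 T cells. Gzma had the opposite direction, at 1503 and 2298 CPM in 12.1% and 18.6% of cells, 0.654 (0.608 to 0.704). Of its UMIs, 504 of 1168 sensitive and 262 of 2007 resistant lay in 1 barcode each, and without these the ratio was 0.428. Fasl, the death ligand, stood at 292 and 128 CPM, in 66.1% and 43.7% of cells, 2.28 (1.81 to 2.88). Ifng, the gene of interferon gamma itself, stood at 333 and 260 CPM, in 47.3% and 44.3% of cells, 1.28 (1.07 to 1.54). Prf1 was 1.14 (0.841 to 1.54), which pools members that differed in opposite directions. With 3 to 4 rule genes it stood at 155 (121 to 197) CPM in T_sensitive and 66.2 (46.1 to 92.1) CPM in T_resistant. With 5 to 7 it stood at 69.1 (43.8 to 104) and 162 CPM (123 to 211), on 23 and 56 UMIs. These differences were not tested. Of the 14 cytotoxic genes, Fasl and Serpinb9, an inhibitor of granzyme B, were called higher and Gzmc and Gzmf lower, and the median was 1.31. Serpinb9 stood at 1.77 over all members and was not called there.

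The granzymes of the Gzmc to Gzmf cluster were rare in members and hung on few barcodes. Gzmc had 4 UMIs in sensitive and 130 in resistant marker-clean members, of which 90 lay in 1 barcode. Gzmf had 48 and 192 UMIs, in 1 and 5 barcodes. Gzmd had 0 and 17 and Gzme 0 and 5, and over all members 203 of 209 resistant Gzme UMIs lay in 1 barcode.

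In other CD8 T cells Gzmb was 2.08 (2.01 to 2.16), Prf1 2.07 (1.91 to 2.25), Ifng 1.97 (1.84 to 2.11) and Fasl 1.80. Gzmb and Fasl were thus higher on the sensitive side among members and among other CD8 T cells alike. In members the Prf1 and Ifng ratios were nearer to 1, with intervals apart from those of other CD8 T cells. For Prf1 that ratio pools the opposite differences given above. The difference between these ratios was not tested, as each rests on 1 library per group.

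The list of inhibitory receptors and factors, Tox and Nr4a2 among the latter, had a median of 0.901, and of 1.00 over all members. Pdcd1 had 239 UMIs in 83 sensitive and 391 in 119 resistant members, or 210 and 284 CPM, a ratio of 0.739 (0.627 to 0.871). Marker-clean it stood at 248 and 389 CPM, in 42.4% and 61.1% of cells, 0.638 (0.532 to 0.764). In other CD8 T cells the ratio of levels was 1.13 (1.07 to 1.2). The share of other CD8 T cells with a Pdcd1 UMI was nonetheless lower in T_sensitive, as in members, at 56.5% and 67.2% with 0 rule genes, 56.8% and 65.9% with 1 and 56.7% and 62.5% with 2. The level and the share thus differed in direction in other CD8 T cells, and no order is read from them. Tox, a factor of the exhausted state, was found in 12.1% and 33.5% of marker-clean cells at 60.5 and 103 CPM, 0.587 (0.404 to 0.844). Nr4a2, a receptor-induced nuclear factor, stood at 97.8 and 198 CPM and was called lower at 0.494 (0.372 to 0.650). Over all members it was 0.691 (0.543 to 0.876) and not called, and with at most 5% mitochondrial UMIs it turned to 1.10 (0.819 to 1.49). Lag3 was found in 40.6% and 61.1% of cells, 0.860 (0.720 to 1.03), and Tigit was 0.942 (0.753 to 1.18). Ctla4 lay on the sensitive side, at 329 and 159 CPM in 47.9% and 37.1% of cells, and was called higher at 2.07 (1.68 to 2.56), with 2.04 in other CD8 T cells.

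Pdcd1 also depended on the rule. With at most 5% mitochondrial UMIs its ratio over all members was 0.931 (0.768 to 1.13), and with at least 2 rule genes it was 1.05, whereas with at least 4 it was 0.599. A Pdcd1 UMI was seen in 0.128% and 0% of fibroblast-marked barcodes, a low estimate of free RNA because these held no Cd3 UMI.

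Among costimulatory genes, Icos stood at 261 and 92.7 CPM, in 46.1% and 28.7% of cells, called higher at 2.82 (2.17 to 3.69), with 2.75 (2.52 to 3.02) in other CD8 T cells. Tnfrsf4 (OX40) was called higher at 2.68 (1.58 to 4.69), with 2.25 in other CD8 T cells. Tnfrsf9 stood at 102 and 190 CPM, in 17.6% and 35.3% of cells, 0.535 (0.404 to 0.703), with 0.990 (0.926 to 1.06) in other CD8 T cells. Among these its share of cells was also lower in T_sensitive with 0 rule genes (35.9% and 54.8%) and with 1 (38.2% and 52.2%), and close with 2 (34.6% and 33.8%). Cd69 was on the sensitive side at 754 and 595 CPM, 1.27 (1.12 to 1.43).

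Chemokines and their receptors differed in both directions. Cxcr3, the receptor for Cxcl9 and Cxcl10, had 164 UMIs in sensitive and 59 in resistant members, and marker-clean stood at 196 and 60.7 CPM, in 50.3% and 24.6% of cells, 3.22 (2.34 to 4.50), with 2.34 (2 to 2.73) in other CD8 T cells. Its ligand gene Cxcl10 stood at 149 and 150 CPM, 0.995 (0.769 to 1.29). Ccr2 was called higher at 2.79 (1.79 to 4.46), with 3.73 (2.99 to 4.68) in other CD8 T cells. Ccl5 stood at 7370 and 4544 CPM, in 90.3% and 76.6% of cells, 1.62 (1.56 to 1.69), Ccl4 at 2304 and 1983 CPM, 1.16 (1.09 to 1.24), and Ccl3 at 284 and 270 CPM, 1.05 (0.872 to 1.27). In other CD8 T cells the same 3 ratios were 2.48, 2.5 and 4.36. Xcl1, which attracts cross-presenting dendritic cells, was called lower at 120 and 385 CPM, in 10.3% and 25.7% of cells, 0.311 (0.245 to 0.393), and 0.193 without the barcode with most of its UMIs in each library. Ccl1 had 1 and 115 UMIs, 92 of them in 1 barcode.

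Ly6c2 stood at 817 and 343 CPM, in 65.5% and 40.1% of cells, called higher at 2.38 (2.07 to 2.74), with 2.14 (1.95 to 2.36) in other CD8 T cells. Ly6c2 was not confined to T cells, as it was also seen in 58.4% and 80.7% of fibroblast-marked barcodes. It was not read in monocyte-lineage barcodes. Itgae (CD103), an integrin of tissue-resident cells, stood at 129 and 72.1 CPM, 1.78 (1.29 to 2.49), and Runx3, a factor of CD8 and resident cells, at 129 and 204 CPM, 0.632 (0.489 to 0.811). Of 10 immediate early genes, 0 were called in marker-clean members, while Nr4a1 was called higher over all members, at 2.12 against 1.72 marker-clean. Fos turned from 1.80 over all members to 0.843 (0.653 to 1.09), while Junb stayed at 1.69 (1.54 to 1.86). Of 5 targets of p53, the factor that damaged DNA engages, 0 were called. Aen was highest at 1.84 (1.09 to 3.16), Cdkn1a was 1.14 (0.8 to 1.63), Mdm2 1.01 and Ccng1 lowest at 0.805 (0.544 to 1.18). Over all members Aen was 0.903 (0.620 to 1.31) and Cdkn1a 0.837 (0.713 to 0.981), so the direction of both depended on the barcodes kept.

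**Figure D4:**
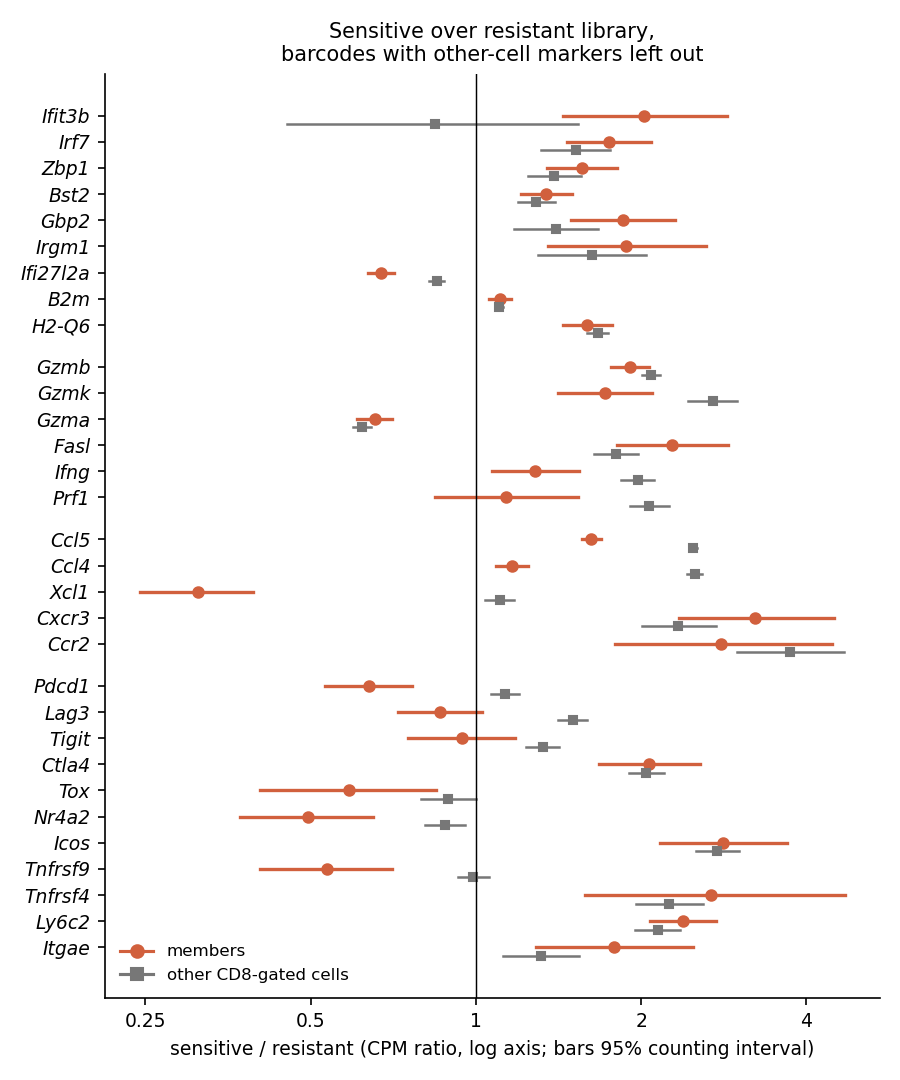
Ratio of sensitive over resistant CPM with 95% intervals (horizontal log axis) for named genes (vertical axis), in marker-clean members and in other CD8 T cells. Cxcr3, Icos and Ly6c2 lie above 2 in both, and Pdcd1 lies at 0.638 in members and 1.13 in other CD8 T cells, where the share of cells with a Pdcd1 UMI went the opposite way to that ratio.

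T cell receptor beta variable (Trbv) genes were read to see whether members shared receptors. A Trbv UMI was found in 84.7% of sensitive and 84.2% of resistant members, and exactly 1 Trbv gene in 116 and 117. These libraries read the far end of transcripts, so a segment is seen in some cells only and no clone can be drawn from it. Members with exactly 1 Trbv gene held 15 and 14 different ones. Trbv13-2 was found in 18.1% and 20.5% of members with 1 gene, against 17.2% and 16.7% of other CD8 T cells. Trbv19 was found in 16.4% (10.2 to 24.4) of sensitive members against 7.60% (5.67 to 9.92) of other CD8 T cells, and in 18.8% against 14.9% in T_resistant. Trbv14 was found in 7.76% against 14.1% in T_sensitive and in 0.855% against 3.99% in T_resistant. The members were thus spread over many segments, as were other CD8 T cells.

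Other cells of the same libraries carried the rule genes too, read at 2000 UMIs per barcode. Of 74 neutrophil-marked barcodes in T_sensitive, 40.5% (29.3 to 52.6) had at least 3 of the 7, and of 99 in T_resistant, 38.4% (28.8 to 48.7). The shares were 5.10% and 3.82% in macrophage-marked, 2.61% and 2.73% in fibroblast-marked and 3.66% and 3.16% in cancer-marked barcodes. Non-cycling CD8-gated barcodes had 7.97% (6.54 to 9.61) of 1254 and 5.91% (4.76 to 7.24) of 1472. CD4 T cells had 2.04% of 147 and 8.33% (1.75 to 22.5) of 36. As sequenced, Isg15 was seen in 49.0% and 66.2% of fibroblast-marked barcodes, and the part of free RNA in the rule genes was not tested. Neutrophils had the highest share in both libraries, and as the enrichment depletes them, their number here does not describe the tumor. At least 3 neutrophil markers were found in 2 and 6 members only.

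**Figure D5:**
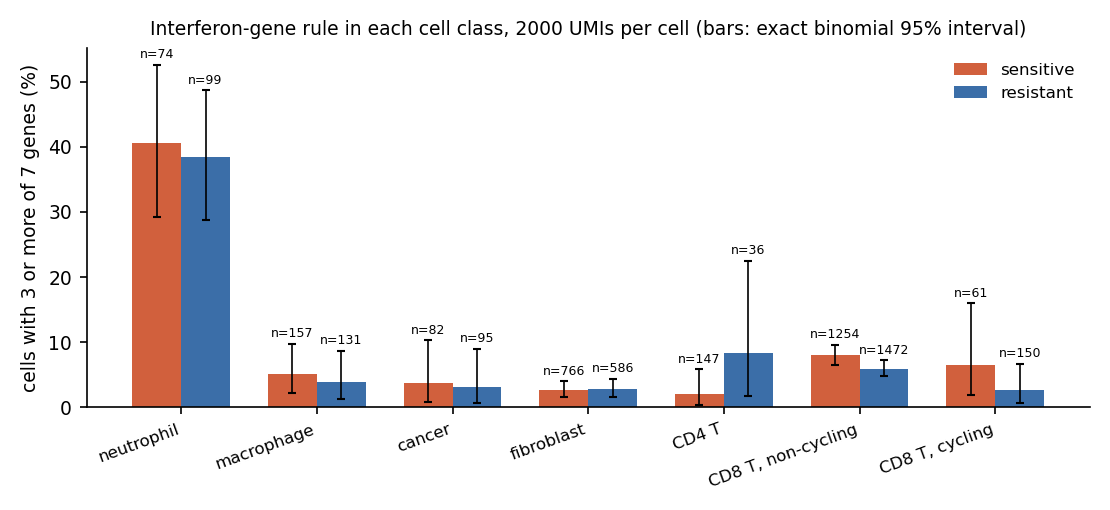
Percent of cells with UMIs of at least 3 of the 7 rule genes (vertical axis, exact binomial 95% intervals, n cells above each bar) by cell class, after thinning to 2000 UMIs, in T_sensitive and T_resistant. Neutrophil-marked barcodes stand at 40.5% and 38.4% and non-cycling CD8-gated barcodes at 7.97% and 5.91%.

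The interferon genes themselves were seen mostly as Ifng. Over all kept barcodes Ifng had 3771 UMIs in 830 barcodes of T_sensitive and 2485 in 822 of T_resistant, and 89 and 82 of these barcodes were members. Ifnb1 had 6 UMIs in 2 resistant barcodes, Ifnk 9 in 3 sensitive barcodes and Ifnz 2 in 2 resistant barcodes. No listed Ifna gene had a UMI in either library. The libraries were enriched for T cells, so they do not show how much type I interferon RNA other cells of the tumor held.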

How the data were processed

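Droplet 3′ libraries of enriched T cells were used, 1 per group, with groups taken from the library titles. The authors aligned reads to mm10 with Cell Ranger (6.0.0 for these libraries and 3.0.1 for the whole-tumor libraries, per the file headers) and deposited raw UMI counts per gene and barcode. Multi-mapping reads are not counted by this tool, which lowers near-identical copies. The T cell libraries held 31690845 and 35908799 UMIs. Whole-tumor libraries list other features and were not set against them.

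The members and the gene lists were chosen with earlier results of these data known. Counts were summed over members as CPM. Ratios had exact conditional binomial intervals at 95%, which give counting error only, and with 1 library per group no test was made. Genes needed 50 UMIs, and a call needed a 2-fold difference with an interval beyond 1. Named genes were those of the lists, the 10 highest and 10 lowest sensitive over resistant ratios among called genes, and for members over other CD8 T cells the 15 highest by the smaller ratio of both libraries and the 10 lowest by the larger, with mitochondrial, ribosomal, predicted and receptor variable genes left out of both, and the rule genes left out of the latter. No doublets were removed. As an alternative, the barcodes with the highest Scrublet scores (0.8% per 1000 barcodes) were left out, 101 and 84. Cell classes needed 3 markers, no tie and no Cd3 UMI. Thinning drew 2000 UMIs per barcode. The ratio was tested on simulated counts over 5630 genes, where 94% of 50 genes with a true ratio of 2.5, 88% of 50 with 0.4 and 0.313% of unchanged genes were called. The draw held Poisson error per gene and library only, without single barcodes or differences between tumors. These shares therefore do not cover calls that rest on 1 barcode. Promoters came from RefSeq (GRCm38.p6). Tools were Python 3.11.15, numpy 2.4.6, scipy 1.17.1, pandas 2.3.3 and scanpy 1.11.5. A few listed genes are not reported here.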

Additional observations from a re-analysis of the deposited data

Results flagged for a closer look

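For 8 listed genes the level in marker-clean members lay above that of other CD8 T cells in one library and below it in the other, with both intervals excluding 1. Genes used by the rule and genes under 50 UMIs were not considered. The difference was not tested, as each library stands alone. The value given is the sensitive ratio of members over other CD8 T cells divided by the resistant ratio. It was 0.242 for Ccl3 (0.439 and 1.82), 0.464 for Ccl4 (0.891 and 1.92), 0.653 for Ccl5 (0.866 and 1.33) and 0.651 for Ifng (0.753 and 1.16). For these 4 effector genes, members were below other CD8 T cells in T_sensitive and above them in T_resistant. It was 0.00951 for Ccl1, with 92 of 115 resistant UMIs in 1 barcode. It was 0.341 for Ccr7, a homing receptor of naive cells (0.568 and 1.67), with 17 of 33 resistant UMIs in 1 barcode, 0.603 for Fos (0.819 and 1.36) and 1.17 for Junb (1.07 and 0.920).

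The 7 rule genes were also present in the whole-tumor libraries, which no comparison above used. They summed to 344.5 CPM (317 to 374) in the library titled control, from mice given saline, to 2044 CPM in the one titled sensitive (1924 to 2168) and to 849.9 CPM in the one titled resistant (807 to 894). Of the sensitive sum's 1098 UMIs, 860 were of Isg15, while Ifit3 (3.72 and 27.1 CPM), Usp18 (27.9 and 55.4) and Cmpk2 (22.3 and 38.7) were higher in the library titled resistant. At least 3 of the 7 genes were found in 8, 18 and 53 barcodes, on 1654559, 537293 and 1731940 UMIs in all. These libraries held 501, 278 and 275 barcodes, of which 10, 0 and 8 were CD8-gated and 2, 0 and 1 met the rule for members, so the sums come mainly from other cells. The source field of the library titled resistant names a sensitive tumor, and each library is called by its title.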

How the results depend on the processing

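No paired analysis was possible because each group had 1 library. For the same reason no replicate could be left out. The depth of single members limits what can be seen: with a median of 4228 and 4597 UMIs, a gene of low level is missed in most cells. The share of members among CD8-gated barcodes kept its direction, with ratios from 1.12 to 1.40 as sequenced and 1.17 to 1.90 after thinning. The antiviral list's median stayed between 1.2 and 1.52. The Pdcd1 ratio ran from 0.599 to 1.05. Of 204 listed genes, 16 were counted as changed in direction under at least 1 alternative. The count leaves out some genes that crossed 1 but whose interval over all members included 1, such as Aen and Cd160. The cause of these shifts was not tested.

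With at least 4 rule genes the thinned share ratio was 1.90, the antiviral median 1.52 and Pdcd1 0.599. Fosb (0.915), Ier2 (0.897) and Ifitm2 (0.959) then turned. With at least 2 rule genes, 239 genes were lower in sensitive members, 9 genes were lower in members than in other CD8 T cells, and Pdcd1 (1.05), Fosb (0.914) and Ifitm2 (0.972) turned. With at most 5% mitochondrial UMIs, 249 genes were lower, the antiviral median was 1.52 and Pdcd1 0.931, and Ier2 (0.920), Ifitm2 (0.952) and Nr4a2 (1.10) turned. Without barcodes holding other-cell markers, 81 genes were higher and 49 lower in sensitive members, and 125 were higher in members than in other CD8 T cells. Cdkn1a (1.14), Dusp1 (0.885), Egr1 (0.997), Fos (0.843), Fosb (0.636), Jun (0.898), Jund (0.913) and Phlda3 (4.78) then turned. Outside the genes counted, Aen also crossed 1, from 0.903 to 1.84, and Cd160 from 0.942 to 1.02. With members thinned to 2000 UMIs, 51 genes were higher and 29 lower and Pdcd1 was 0.626. Ccr7 (1.01), Cd44 (1.03), Cdkn1a (1.74), Fosb (0.857), Ifi203 (0.962), Jun (0.943), Jund (0.913) and Ly6e (1.03) turned. With a mean over cells, Cdkn1a (1.34), Fosb (0.959), Jund (0.959) and Ly6e (1.03) turned. Genes with at least 20 UMIs gave 376 higher and 279 lower, and those with at least 200 gave 57 and 48.

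Leaving out, in each library, the barcode with most UMIs of a gene was chosen after seeing the data. Together with the removal of other-cell markers it gave 62 genes higher and 51 lower and Pdcd1 at 0.610, and Cdkn1a (1.02), Dusp1 (0.846), Fos (0.991), Fosb (0.619), Jun (0.906) and Jund (0.912) turned. Thinned to 1000 UMIs, the share of barcodes with at least 3 rule genes was 25% and 23.9% for neutrophil-marked, 1.13% and 0.850% for fibroblast-marked, 4.50% and 3.16% for non-cycling CD8-gated barcodes and 0% and 0% for CD4 T cells of T_sensitive and T_resistant.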

Other observations

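Genes of naive and memory T cells were read in marker-clean members. Tcf7, a factor of stem-like T cells, was found in 10.9% of sensitive and 9.58% of resistant cells, at 30.9 and 29.8 CPM, a ratio of 1.04 (0.570 to 1.88). In other CD8 T cells it stood at 34.2 and 15.2 CPM. Il7r, the receptor of the survival cytokine IL-7, was found in 52.7% and 49.1% of members, at 264 and 205 CPM. Cxcr6, a receptor of cells that stay in tumors, was found in 89.7% and 88.0%, at 856 and 690 CPM. None of these genes was used by the rule.

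The same ISRE core was read in the promoters of the interferon genes themselves. It was in 11 of 20 matched interferon ligand genes (55.0%), against 3.46% of all genes, in the windows of 250 bases. Apart from Ifng, the ligand genes had few or no UMIs in these libraries.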
